A study of Mus musculus with 12 samples.

Results

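The Toll-like receptor genes *Tlr1*, *Tlr2*, *Tlr3*, *Tlr4*, *Tlr5*, *Tlr6*, *Tlr7* and *Tlr13* were followed in mouse kidney together with *Cd14* and *Ly96*, whose products present lipopolysaccharide to TLR4. The 10 genes were found by symbol among the 24421 symbols of the RNA-seq tables, and where a symbol had more than 1 transcript, that with most reads over all libraries stood for it. Whole kidneys of 6-week-old male C57BL/6 mice gave 12 libraries in 4 groups of 3. The groups were kidneys of unoperated wild-type (WT) mice and unoperated Tet2-/- mice (baseline), and kidneys of either genotype taken 24 h after 60 min of warm ischemia (ischemia-reperfusion, IR). In the IR mice the right kidney was clamped and the left kidney was removed, whereas sham-operated libraries were not analysed here, so a difference between IR and baseline includes the surgery. *Tet2*, which encodes a dioxygenase that oxidizes 5-methylcytosine, is deleted in all cells of Tet2-/- mice and not in the kidney alone, and both genotypes came from crosses of heterozygous parents. According to the study's methods, baseline and IR kidneys came from different mice. The labels tie no library to a litter, and p-values measure the spread between these 12 libraries.

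Toll-like receptors are membrane proteins that bind conserved parts of microbes and molecules released by damaged cells, and they signal through the adaptors MYD88 and TRIF to NF-kB and interferon regulatory factors. TLR1, TLR2, TLR4, TLR5 and TLR6 sit at the cell surface, whereas TLR3, TLR7 and TLR13 sense nucleic acids in endosomes. In the kidney these receptors are found on leukocytes, endothelium and tubular epithelium, and TLR2 and TLR4 have long been studied in ischemic injury.

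*Tet2* was measured first as a check of the labels. Its level in FPKM, the count scaled by transcript length and library depth, was 9.15, 6.25 and 7.33 in WT baseline kidneys and 9.24, 16.6 and 10.3 in Tet2-/- baseline kidneys, so it was not lower in the libraries labelled Tet2-/-. Every Tet2-/- baseline library was above every WT baseline library (log2 fold change 0.76, SE 0.24, edgeR adjusted p = 0.321). After IR *Tet2* was 9.34, 3.97 and 3.85 in WT kidneys and 2.64, 3.2 and 1.76 in Tet2-/- kidneys, with no overlap (log2 fold change -1.28, SE 0.36, edgeR adjusted p = 0.069). This difference passed with DESeq2 and with all 12 libraries in 1 fit. On simulated data for the genotype comparison after IR, DESeq2 made more false calls than edgeR, so its calls here and below are less certain. From baseline to IR *Tet2* fell in Tet2-/- kidneys (-2.52, SE 0.27, edgeR adjusted p = 0.000519). The IR effect differed between the genotypes by -2.0 (SE 0.48, edgeR adjusted p = 0.0285 for the genotype by IR interaction). That call was lost without WT baseline replicate 2 or 3, among others. The counts do not show which exons the reads came from, so the libraries are called by their labels throughout. Total counts per library ranged from 51007366 to 107969888. Tet2-/- IR replicate 2 stood apart by macrophage markers and WT baseline replicates 2 and 3 and Tet2-/- IR replicate 3 by fat cell markers. Proximal tubule markers, summed over 10 genes, lay between 4880 and 5910 FPKM in the baseline libraries, from 2820 to 3770 in WT IR libraries and from 945 to 1680 in Tet2-/- IR libraries, so the labelled tissue was present in each.

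At baseline the 10 genes were weakly expressed. In WT baseline kidneys *Ly96* (2.13 ± 0.897 FPKM, SD, n = 3), *Tlr3* (1.80 ± 0.242) and *Cd14* (1.71 ± 0.262) had the highest mean levels and overlapped one another. *Tlr2* (0.831 ± 0.115) and *Tlr4* (0.701 ± 0.385) followed, with every library below those of *Cd14* and above those of *Tlr13*. *Tlr13*, *Tlr7*, *Tlr1* and *Tlr5* lay between 0.222 and 0.115 FPKM on average and their neighbours overlapped, and *Tlr6* was lowest at 0.0700 ± 0.00693 FPKM. The order in Tet2-/- baseline kidneys began with *Ly96* (2.62 ± 0.334), above *Cd14* (1.35 ± 0.432) and *Tlr3* (1.34 ± 0.242), which overlapped. *Cd14* moved to the first place after IR, at 8.63 ± 5.62 FPKM in WT kidneys and 38.3 ± 11 in Tet2-/- kidneys. *Ly96* was second in both IR groups, at 3.24 ± 0.401 and 5.09 ± 0.852 FPKM, and its libraries lay below those of *Cd14* in each. As a share of the summed FPKM of the 10 genes, *Cd14* made up from 16.5% to 27.4% in the baseline libraries, from 43.0% to 62.8% in WT IR libraries and from 65.0% to 83.1% in Tet2-/- IR libraries.

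**Figure D1:**
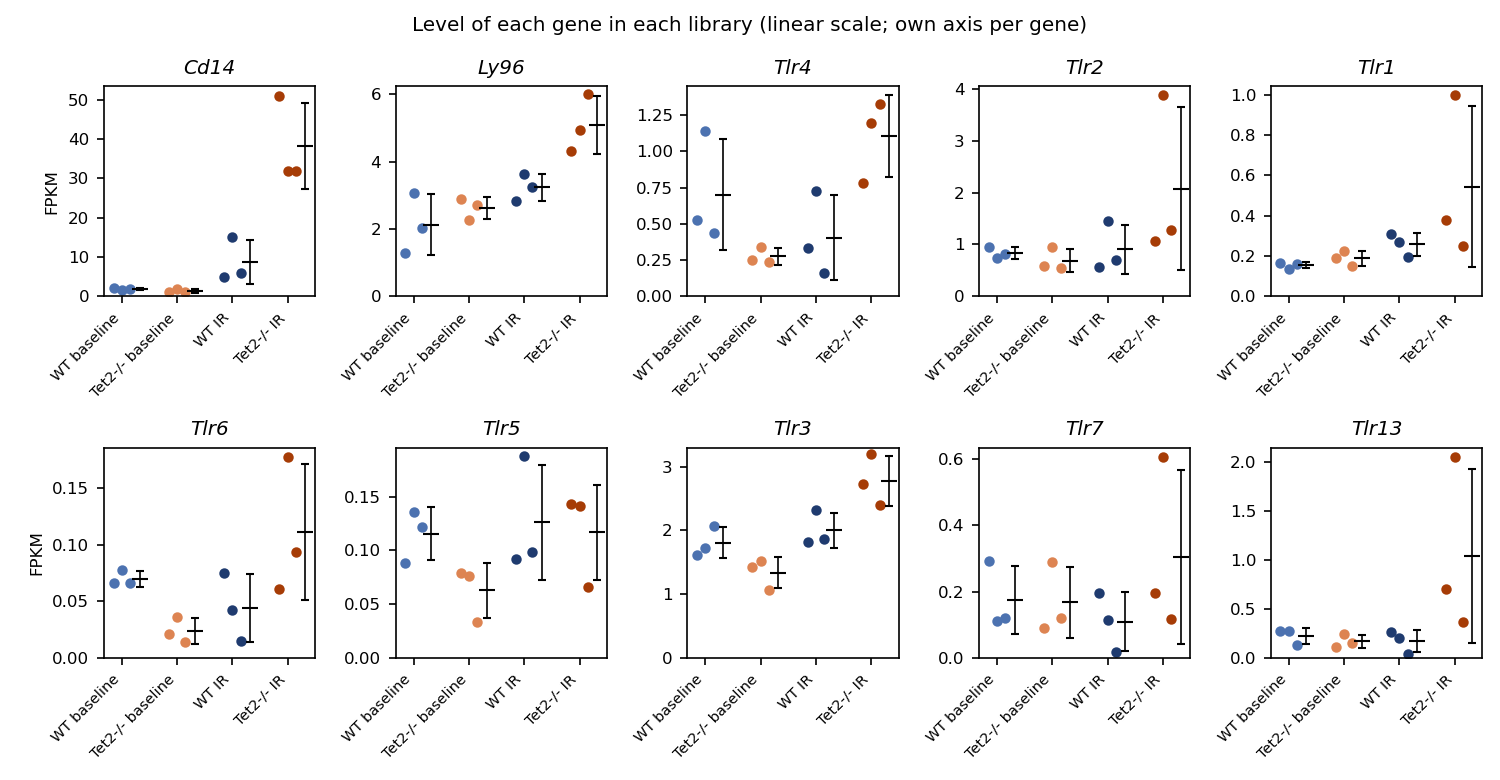
Level of each of the 10 genes in FPKM (vertical axis, linear, one scale per gene) in the 12 libraries of the 4 groups; points are libraries and the black mark with its bar is the mean ± SD of 3. *Cd14* reaches from 31.9 to 50.9 FPKM in Tet2-/- IR kidneys, above every library of the other groups, while *Tlr1*, *Tlr2*, *Tlr7* and *Tlr13* have 1 high Tet2-/- IR library, replicate 2.

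Each comparison was made between 2 groups of 3 libraries with edgeR's quasi-likelihood test over all genes, and a gene was taken as changed at an adjusted p under 0.05 with an absolute log2 fold change over 1. All 10 genes passed the filter on low counts in all comparisons. In WT kidneys 1 of the 10 genes rose after IR, *Cd14*, and 0 fell, where 2.35% of all 16015 genes tested changed (1.46% rose and 0.887% fell). The WT share was not steady, since 234 genes rose and 142 fell, against 428 and 559 with the replicate number as a block and 541 and 532 with DESeq2, and with 1 library left out the counts ran from 41 and 46 (without WT baseline replicate 3) to 365 and 183 (without WT IR replicate 1). In Tet2-/- kidneys *Cd14*, *Tlr4*, *Tlr6* and *Tlr13*, 4 of the 10, rose after IR and 0 fell, where 24.3% of 16359 genes changed (12.7% rose and 11.6% fell). Of these *Tlr6* passed the filter on low counts in this comparison only through the IR libraries, where it was high, so its call is not taken as support. Scaled by library size in place of TMM, 2860 genes rose and 1397 fell in Tet2-/- kidneys, against 2078 and 1896. The median log2 fold change over the 10 genes was 0.05 in WT kidneys, against -0.03 over all genes, and 1.26 in Tet2-/- kidneys, against 0.04. In Tet2-/- kidneys every IR library lay above every baseline library for 8 of the 10 genes, all but *Tlr5* and *Tlr7*, and the same held for 40.5% of all genes tested. No member lay below baseline in this way, against 17.9% of all genes. In WT kidneys it held for *Cd14* and *Tlr1*, against 18.9% of all genes, and no member lay below, against 10.4%. Both IR effects are whole-kidney values, in which more cells of a type and more RNA per cell cannot be told apart.

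**Figure D2:**
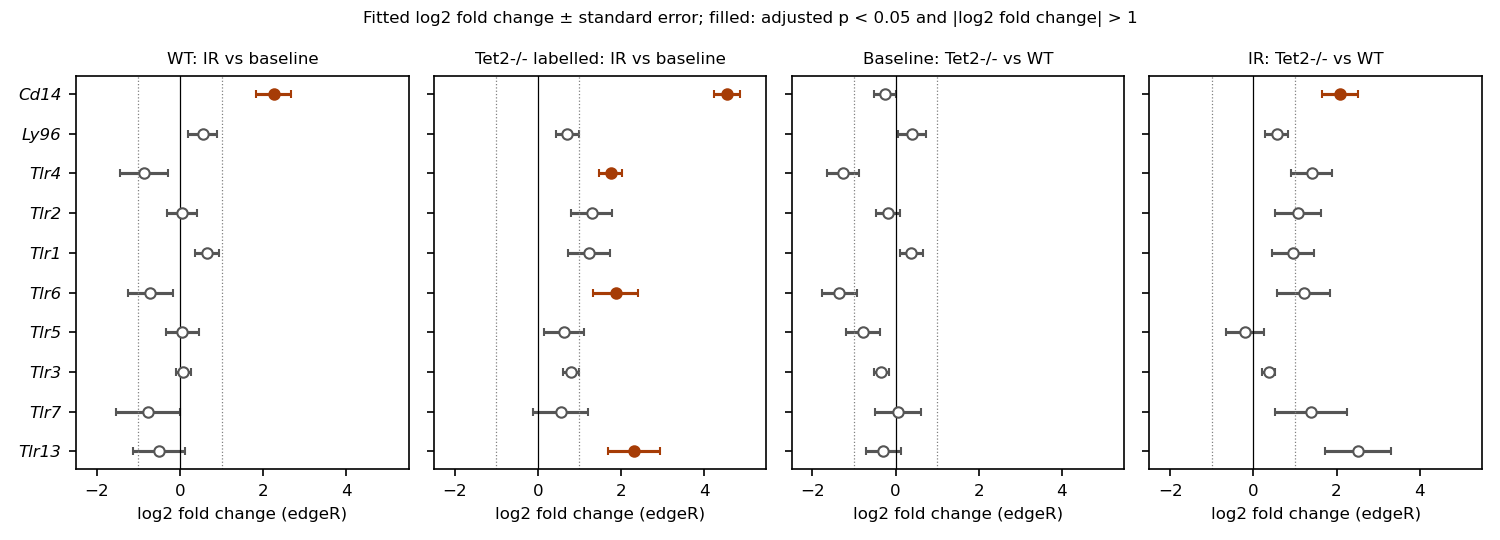
Fitted log2 fold change of the 10 genes in 4 comparisons (horizontal axis, ± standard error; filled points pass both thresholds, dotted lines mark a log2 fold change of -1 and 1). *Cd14* is filled in 3 panels, *Tlr4*, *Tlr6* and *Tlr13* in the Tet2-/- IR panel, and no gene at baseline.

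CD14 is a membrane-anchored co-receptor that takes lipopolysaccharide from its carrier protein and hands it to the complex of TLR4 and MD-2. *Cd14* levels were 1.98, 1.46 and 1.70 FPKM in WT baseline and 1.12, 1.85 and 1.09 FPKM in Tet2-/- baseline libraries. After IR they were 4.89, 15.1 and 5.90 FPKM in WT and 50.9, 31.9 and 31.9 FPKM in Tet2-/- libraries. Every IR library was above every baseline library of its genotype, and the lowest Tet2-/- IR library was above the highest WT IR library. *Cd14* rose 4.77-fold in WT kidneys (log2 fold change 2.25, SE 0.43, edgeR adjusted p = 0.0444) and 23.6-fold in Tet2-/- kidneys (4.56, SE 0.31, adjusted p = 0.000109). After IR it was 4.22-fold higher in Tet2-/- than in WT kidneys (log2 fold change 2.08, SE 0.43, edgeR adjusted p = 0.0313), and at baseline the genotypes differed by -0.25 (SE 0.27, adjusted p = 0.696). The IR effect itself differed between the genotypes by a log2 value of 2.35 (SE 0.55, edgeR adjusted p = 0.027 for the genotype by IR interaction over 12 libraries). The rise in Tet2-/- kidneys kept its call under all 18 alternatives. The WT call was lost without WT baseline replicate 1, 2 or 3 and without WT IR replicate 2 or 3, with log2 fold changes from 1.66 to 2.54, and the genotype call after IR was lost without WT IR replicate 1 or 3 or any 1 Tet2-/- IR replicate, with values from 1.79 to 2.68.

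*Ly96* encodes MD-2, the secreted protein that binds lipopolysaccharide together with TLR4. Its levels were 1.28, 3.07 and 2.02 FPKM in WT baseline, 2.90, 2.25 and 2.71 in Tet2-/- baseline, 2.84, 3.64 and 3.24 in WT IR and 4.33, 4.94 and 6.01 in Tet2-/- IR libraries. The Tet2-/- IR libraries lay above all others, and the other groups overlapped in part. The log2 fold change after IR was 0.55 (SE 0.35, edgeR adjusted p = 0.394) in WT and 0.71 (SE 0.27, adjusted p = 0.0675) in Tet2-/- kidneys, and neither passed. The difference between these effects was 0.19, with a normal 95% confidence interval from -0.66 to 1.04.

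TLR4 is the signalling receptor of this complex and also responds to products of damaged tissue. *Tlr4* levels were 0.528, 1.14 and 0.433 FPKM in WT baseline and 0.247, 0.340 and 0.236 FPKM in Tet2-/- baseline libraries. After IR they were 0.330, 0.726 and 0.157 FPKM in WT and 0.785, 1.20 and 1.33 FPKM in Tet2-/- libraries. Tet2-/- libraries were thus all below WT at baseline and all above WT after IR. *Tlr4* rose 3.37-fold in Tet2-/- kidneys (log2 fold change 1.75, SE 0.28, edgeR adjusted p = 0.00244), and the value in WT kidneys was -0.87 (SE 0.57, adjusted p = 0.402). The WT value was -0.33 without WT baseline replicate 2, the highest *Tlr4* library of its group and 1 of those with fat cell markers, and ran from -1.54, without WT IR replicate 2, to -0.33 with libraries left out. The interaction was 2.67 (SE 0.69, edgeR adjusted p = 0.037), the larger of the 2 that passed among the 10 genes, where 9.18% of 16741 genes passed and 3.79% passed with a higher and 5.39% with a lower value in Tet2-/- kidneys. With 1 library left out the counts over all genes, 634 higher and 902 lower, ran from 147 and 550 (without Tet2-/- baseline replicate 3) to 980 and 1064 (without WT IR replicate 2). Neither genotype difference passed on its own (log2 fold change -1.26, SE 0.38, edgeR adjusted p = 0.309 at baseline and 1.40, SE 0.50, adjusted p = 0.122 after IR), although the latter did without WT IR replicate 2 (2.07) and with DESeq2 (adjusted p = 0.0314). Without WT baseline replicate 2 the baseline difference was -0.71, and the interaction was 2.08 and did not pass (edgeR adjusted p = 0.0775). With libraries left out in turn the interaction of *Tlr4* ran from 2.08 to 3.36, and its edgeR adjusted p was at most 0.0948.

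The ratio of *Cd14* to *Tlr4*, both in FPKM, was from 1.28 to 5.45 in the baseline libraries. It was 14.8, 20.8 and 37.6 in WT IR and 64.9, 26.7 and 24 in Tet2-/- IR libraries. The IR groups therefore both lay above baseline in this ratio and overlapped each other.

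TLR1 and TLR6 each pair with TLR2 to bind bacterial lipopeptides, TLR1 the triacylated and TLR6 the diacylated forms. Their genes lie close together on chromosome 5 and have nearly the same sequence in part. In the mm9 genome they share an unbroken run of 229 coding bases, in exon 3 of *Tlr1* (chr5:65316776-65317004, minus strand) and exon 2 of *Tlr6* (chr5:65345067-65345295, minus strand). The run is shown with 15 bases on each side, because a read inside it cannot be assigned to either gene, and capitals mark the shared bases.
Tlr1: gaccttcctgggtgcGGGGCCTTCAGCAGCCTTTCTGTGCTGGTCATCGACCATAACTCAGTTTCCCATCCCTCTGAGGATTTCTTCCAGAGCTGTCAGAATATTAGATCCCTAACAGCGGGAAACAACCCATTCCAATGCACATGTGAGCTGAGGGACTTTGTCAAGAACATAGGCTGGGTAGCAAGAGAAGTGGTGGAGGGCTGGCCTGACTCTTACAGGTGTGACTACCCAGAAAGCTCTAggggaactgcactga
Tlr6: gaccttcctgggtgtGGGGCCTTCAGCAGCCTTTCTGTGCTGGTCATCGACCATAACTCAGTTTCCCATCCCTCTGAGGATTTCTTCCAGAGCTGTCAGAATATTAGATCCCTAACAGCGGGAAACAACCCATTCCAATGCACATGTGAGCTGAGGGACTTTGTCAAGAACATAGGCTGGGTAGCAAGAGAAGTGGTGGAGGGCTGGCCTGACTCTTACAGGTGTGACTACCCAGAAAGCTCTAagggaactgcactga
Of all 50-base stretches, 17.4% of the *Tlr1* transcript and 17.8% of the *Tlr6* transcript occur in the other gene, and none does in the other 8 genes of the set. Of 100-base stretches, 10.1% and 10.3% do. These shares do not bound the error of *Tlr6*, since *Tlr1* was the higher gene (0.189 against 0.0237 FPKM on average in Tet2-/- baseline kidneys). How many reads of either gene came from shared stretches was not tested.

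*Tlr2* levels were 0.955, 0.729 and 0.809 FPKM in WT baseline, 0.574, 0.951 and 0.537 in Tet2-/- baseline, 0.561, 1.44 and 0.704 in WT IR and 1.07, 3.88 and 1.28 in Tet2-/- IR libraries. Tet2-/- IR replicate 2 was the highest library, and the other Tet2-/- IR libraries lay within the range of WT IR. The log2 fold change after IR was 0.05 (SE 0.37, edgeR adjusted p = 0.953) in WT and 1.30 (SE 0.49, adjusted p = 0.0665) in Tet2-/- kidneys. With the replicate number as a block the value in Tet2-/- kidneys was 1.15 and passed (edgeR adjusted p = 0.0152). It also passed with DESeq2 (adjusted p = 0.0166), with library sizes in place of TMM, with all 12 libraries in 1 fit (edgeR adjusted p = 0.0374) and without Tet2-/- IR replicate 1 or 3 (1.58 and 1.49), and without replicate 2 it was 0.59. The interaction was 1.28 (SE 0.66, edgeR adjusted p = 0.233), and 0.50 without Tet2-/- IR replicate 2.

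*Tlr1* levels were 0.165, 0.136 and 0.161 FPKM in WT baseline, 0.190, 0.225 and 0.151 in Tet2-/- baseline, 0.308, 0.270 and 0.196 in WT IR and 0.380, 1.0 and 0.251 in Tet2-/- IR libraries. IR libraries were above baseline in both genotypes, but neither difference passed (log2 fold change 0.65, SE 0.30, edgeR adjusted p = 0.25 in WT and 1.23, SE 0.50, adjusted p = 0.0808 in Tet2-/- kidneys), although the latter did without Tet2-/- IR replicate 3 (1.52) and was 0.55 without replicate 2. It also passed with DESeq2 (adjusted p = 0.038) and with all 12 libraries in 1 fit (edgeR adjusted p = 0.0279). *Tlr6* levels were 0.0660, 0.0780 and 0.0660 FPKM in WT baseline, 0.0210, 0.0360 and 0.0140 in Tet2-/- baseline, 0.0750, 0.0420 and 0.0150 in WT IR and 0.0610, 0.178 and 0.0940 in Tet2-/- IR libraries. These rest on 3 to 59.5 counts per library. *Tlr6* rose 3.65-fold in Tet2-/- kidneys (log2 fold change 1.87, SE 0.54, edgeR adjusted p = 0.0261), and the value in WT kidneys was -0.71 (SE 0.55, adjusted p = 0.481). Among Tet2-/- libraries it passed the filter on low counts only through those after IR, where it was high (4, 14 and 3.5 counts at baseline and 17.5, 59.5 and 23 after IR). The call was lost without Tet2-/- baseline replicate 1 or 3 and without Tet2-/- IR replicate 2, the library with 59.5 counts, when the value was 1.43. The interaction was 2.61 (SE 0.78, edgeR adjusted p = 0.0593), and with same-numbered baseline and IR libraries of a genotype as a block it was 2.75 and passed (edgeR adjusted p = 0.0421). This interaction passed with DESeq2 as well (adjusted p = 0.0376).

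TLR5 binds bacterial flagellin. *Tlr5* levels were 0.0880, 0.136 and 0.122 FPKM in WT baseline, 0.0790, 0.0760 and 0.0330 in Tet2-/- baseline, 0.0920, 0.188 and 0.0980 in WT IR and 0.143, 0.141 and 0.0660 in Tet2-/- IR libraries. The groups overlapped after IR, and no comparison passed. The log2 fold change after IR was 0.06 (SE 0.40, edgeR adjusted p = 0.948) in WT and 0.63 (SE 0.47, adjusted p = 0.309) in Tet2-/- kidneys.

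Among the endosomal receptors, TLR3 binds double-stranded RNA, TLR7 single-stranded RNA and TLR13, which is present in mice and not in humans, a sequence of bacterial ribosomal RNA. Promoter sequences of RefSeq on GRCm38.p6 were used for 6 of the 10 genes (*Tlr1*, *Tlr2*, *Tlr3*, *Tlr5*, *Tlr6* and *Tlr13*). They ran from 250 bases before to 50 bases after the start of transcription, and 4 motifs were searched on both strands. No promoter of *Cd14*, *Ly96*, *Tlr4* or *Tlr7* was searched, so nothing is said of their motifs. TGANTCA (AP-1) is held by 7.8% of the 32851 promoters of the same length, GAGGAAGT (PU.1) by 3.2%, GGG, any 2 bases and TTTCC (NF-kB) by 1.6%, and GAAA, any 2 bases and GAAA (interferon regulatory factors, IRF) by 3.4%. The promoter of *Tlr3* holds the NF-kB letters 211 bases before the start, and 1 promoter of *Tlr6* holds the IRF letters in a pair of overlapping matches on the minus strand of the window, 116 and 110 bases before the start. A promoter of *Tlr1* holds the PU.1 letters 23 bases before the start. *Tlr2*, *Tlr5* and *Tlr13* hold none of the 4. The promoters of *Tlr3* (chr8:45410331-45410630, minus strand) and *Tlr6* (chr5:64959117-64959416, minus strand) are shown because they hold a match, in capitals, and that of *Tlr13* (chrX:106143025-106143324, plus strand) because *Tlr13* rose with *Tlr6* in Tet2-/- IR kidneys and holds none.
Tlr3: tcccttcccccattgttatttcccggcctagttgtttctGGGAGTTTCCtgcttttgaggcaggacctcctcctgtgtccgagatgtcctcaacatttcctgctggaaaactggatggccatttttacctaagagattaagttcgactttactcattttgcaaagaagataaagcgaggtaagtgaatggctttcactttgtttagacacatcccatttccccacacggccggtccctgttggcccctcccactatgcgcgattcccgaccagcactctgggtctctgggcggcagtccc
Tlr6: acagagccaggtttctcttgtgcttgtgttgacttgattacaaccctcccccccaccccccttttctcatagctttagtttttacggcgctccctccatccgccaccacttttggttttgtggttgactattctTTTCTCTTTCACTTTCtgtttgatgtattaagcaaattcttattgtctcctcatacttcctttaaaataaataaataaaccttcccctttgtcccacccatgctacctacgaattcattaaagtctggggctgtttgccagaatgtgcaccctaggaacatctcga
Tlr13: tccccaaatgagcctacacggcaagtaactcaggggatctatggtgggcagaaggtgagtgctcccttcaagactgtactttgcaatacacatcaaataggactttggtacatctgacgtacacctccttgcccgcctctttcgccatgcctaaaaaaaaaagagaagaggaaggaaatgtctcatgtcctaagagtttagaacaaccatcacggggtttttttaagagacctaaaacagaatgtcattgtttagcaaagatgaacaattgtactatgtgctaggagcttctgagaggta
A match is a description of the letters and no test was made of it.

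*Tlr3* levels were 1.61, 1.72 and 2.08 FPKM in WT baseline, 1.42, 1.52 and 1.06 in Tet2-/- baseline, 1.82, 2.32 and 1.86 in WT IR and 2.73, 3.19 and 2.40 in Tet2-/- IR libraries. Like *Tlr4*, *Tlr3* was lower in all Tet2-/- than in all WT libraries at baseline and higher in all Tet2-/- libraries after IR. The log2 fold change after IR was 0.79 in Tet2-/- kidneys (SE 0.19, edgeR adjusted p = 0.0118), which passed the p threshold and not the fold threshold (with library sizes in place of TMM it was 1.02 and passed both), and 0.08 in WT kidneys (SE 0.18, adjusted p = 0.824). The interaction was 0.75 (SE 0.25, edgeR adjusted p = 0.0832) and did not pass, although it did with DESeq2 (adjusted p = 0.0317).

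*Tlr13* levels were 0.270, 0.270 and 0.127 FPKM in WT baseline, 0.110, 0.244 and 0.147 in Tet2-/- baseline, 0.264, 0.199 and 0.0410 in WT IR and 0.703, 2.05 and 0.362 in Tet2-/- IR libraries. The Tet2-/- IR libraries lay above all others, with replicate 2 far above its group. *Tlr13* rose 4.94-fold in Tet2-/- kidneys (log2 fold change 2.31, SE 0.62, edgeR adjusted p = 0.0203), against -0.50 in WT kidneys (SE 0.62, adjusted p = 0.671). The genotype difference after IR was 2.51 (SE 0.79, edgeR adjusted p = 0.0881) and the interaction 2.83 (SE 0.94, adjusted p = 0.0815), and neither passed. Without Tet2-/- IR replicate 2 they were 1.64 and 1.91. Both passed with DESeq2 (adjusted p = 0.00456 and 0.0199), the genotype difference also with all 12 libraries in 1 fit (edgeR adjusted p = 0.0279) and the interaction without Tet2-/- IR replicate 3 (3.21). With same-numbered baseline and IR libraries of a genotype as a block the interaction was 2.83 and passed (edgeR adjusted p = 0.0174). The rise in Tet2-/- kidneys was lost without Tet2-/- baseline replicate 1 or 3, and without Tet2-/- IR replicate 2 the value was 1.45 (edgeR adjusted p = 0.0428).

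*Tlr7* levels were 0.292, 0.112 and 0.119 FPKM in WT baseline, 0.0910, 0.289 and 0.121 in Tet2-/- baseline, 0.196, 0.113 and 0.0170 in WT IR and 0.194, 0.606 and 0.116 in Tet2-/- IR libraries. All groups overlapped. The log2 fold change after IR was -0.77 (SE 0.77, edgeR adjusted p = 0.585) in WT and 0.55 (SE 0.66, adjusted p = 0.528) in Tet2-/- kidneys, and without Tet2-/- IR replicate 2 the latter was -0.32.

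At baseline none of the 10 genes differed between the genotypes by edgeR, where 0.0124% of 16086 genes did. At an unadjusted p under 0.05, *Tlr4* and *Tlr6*, 2 of the 10, were lower in Tet2-/- kidneys, and 11.8% of all genes passed in either direction. DESeq2 called *Tlr4* (adjusted p = 0.0341) and limma on log2(FPKM + 1) called 0. *Tlr3*, *Tlr4*, *Tlr5* and *Tlr6* were lower in every Tet2-/- than in every WT baseline library, against 16.5% of all genes, and no member was higher in this way, against 3.06%. After IR *Cd14* alone, 1 of the 10, was higher in Tet2-/- kidneys by edgeR, where 6.15% of 16186 genes differed (2.30% were higher and 3.85% lower). This share was not steady, since 373 genes were higher and 623 lower, against 65 and 229 without WT IR replicate 1 and 319 and 623 without WT IR replicate 2, the lowest and highest counts with 1 library left out. *Cd14*, *Ly96*, *Tlr3*, *Tlr4* and *Tlr13* were higher in every Tet2-/- than in every WT IR library, against 22.0% of all genes, and no member was lower in this way, against 14.6%. The median log2 difference over the 10 genes was -0.28 at baseline, against 0.00 over all genes, and 1.15 after IR, against 0.04. *Cd14* and *Tlr4* were the 2 genes of the set whose IR effect differed between genotypes by the interaction, and all 10 interaction values were above 0, as were 56.8% of those of all genes. The comparisons share libraries, so these counts are not independent of one another.

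Markers of leukocytes were measured beside these genes. The summed level of 12 neutrophil markers was from 0.715 to 2.59 FPKM in WT baseline, 2.02 to 3.28 in Tet2-/- baseline, 4.20 to 9.70 in WT IR and 77.7 to 137.0 in Tet2-/- IR libraries. Of the 12, 5 passed the filter on low counts in the baseline libraries alone, and 4 of these (*Csf3r*, *Mmp9*, *S100a8* and *S100a9*) rose in Tet2-/- kidneys after IR, against 12.7% of all genes, and were higher in Tet2-/- than in WT kidneys after IR, against 2.30%. A further 6 passed it only through the Tet2-/- IR libraries, where they were high, and are not counted. The summed level of 16 macrophage and monocyte markers was from 47.9 to 73.7 FPKM in WT baseline, 43.4 to 88.8 in Tet2-/- baseline, 32.5 to 79.8 in WT IR and 38.8 to 235.0 in Tet2-/- IR libraries, where the 235.0 was replicate 2. No marker of either list was at 0 in a whole group. Of 16 tested macrophage and monocyte markers, 2 rose, 1 fell and 13 did not pass in Tet2-/- kidneys after IR, where 12.7% of all genes rose and 11.6% fell, so these shares were no higher than those of all genes, and the median log2 fold change was 0.35 against 0.04 over all genes. *Cd68* and *Itgam* rose in Tet2-/- kidneys after IR (log2 fold change 3.46, SE 0.24, edgeR adjusted p = 0.000121 and 3.50, SE 0.66, adjusted p = 0.00473), and *Csf1r*, the receptor of the macrophage growth factor, fell (-2.69, SE 0.37, adjusted p = 0.00124). *Cd68* rose in WT kidneys as well, the 1 of 16 called there, against 1.46% of all genes. It was 9.04, 11.9 and 12.8 FPKM in WT IR and 14.9, 21.1 and 12.8 in Tet2-/- IR libraries, which overlapped. *Cd14* was from 1.93% to 3.04% of the macrophage sum in baseline libraries, 6.13%, 28.8% and 18.1% in WT IR and 75.5%, 13.6% and 82.2% in Tet2-/- IR libraries. *Tlr13* was at most 0.564% of it in the other groups and 1.04%, 0.872% and 0.933% in Tet2-/- IR libraries. Tubular injury markers also moved with *Cd14*, and their sum over 8 genes was from 219 to 515 FPKM in baseline, 1650 to 7860 in WT IR and 12000 to 26000 in Tet2-/- IR libraries. The part of leukocytes and of injured tubules in the levels of the 10 genes was not tested.

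**Figure D3:**
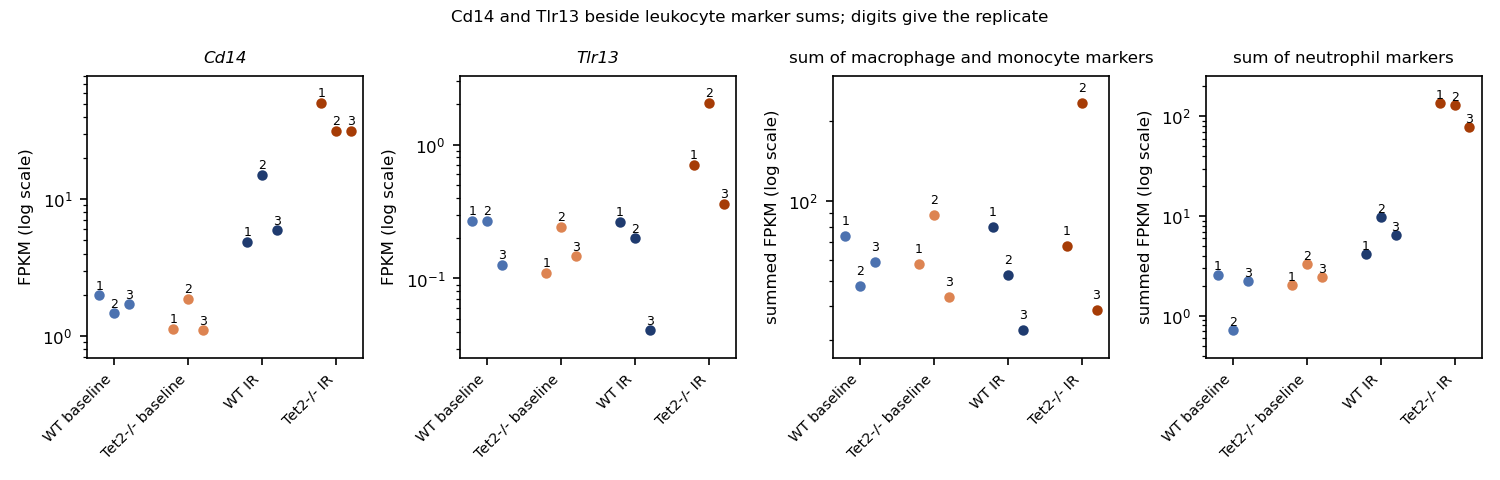
*Cd14* and *Tlr13* in FPKM, and the summed FPKM of 16 macrophage and monocyte markers and of 12 neutrophil markers, in the 12 libraries (vertical axes, log scale; digits give the replicate). Replicate 2 of the Tet2-/- IR group is highest for *Tlr13* and macrophage markers and not for *Cd14*, and the neutrophil sum of Tet2-/- IR libraries lies between 77.7 and 137.0 FPKM, above every other library.

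Markers of fat cells stood out in WT baseline replicates 2 and 3 and Tet2-/- IR replicate 3, where *Adipoq* was 3.01, 15.6 and 10 FPKM against at most 0.273 in the other libraries. With the mean log2 level of 9 fat cell markers as a covariate, *Cd14*, *Tlr1*, *Tlr2*, *Tlr4*, *Tlr6* and *Tlr13* were called in Tet2-/- kidneys after IR, where 2259 of 16359 genes rose and 1831 fell under that fit. The number of the 10 genes called fell to 0 in WT kidneys, between genotypes after IR and for the interaction. The log2 values of *Cd14* were then 2.31 in WT kidneys, 2.02 between genotypes after IR and 2.38 for the interaction, and the interaction of *Tlr4* was 2.17 (edgeR adjusted p = 0.193). Under that covariate 0 genes of the whole table changed in WT kidneys by edgeR (2155 at an unadjusted p under 0.05), against 376 without it. Lymphocyte markers (12 genes) summed to 3.42 to 3.73 FPKM in WT baseline, 2.59 to 5.02 in Tet2-/- baseline, 0.680 to 1.77 in WT IR and 0.532 to 3.04 in Tet2-/- IR libraries, so the WT IR libraries lay below WT baseline. Of these markers 0 of 10 tested changed in WT kidneys after IR by edgeR (8 at an unadjusted p under 0.05, and 4 called by DESeq2 and 0 by limma) and 3 of 11 fell in Tet2-/- kidneys, against 11.6% of all genes. Among those that fell, *Cd2* (12.5, 25 and 4 counts in Tet2-/- IR libraries) and *Cd8a* (4.5, 31 and 5 counts) passed the filter on low counts through the baseline libraries, where they were higher, and not through the IR libraries. Dendritic cell markers (8 genes) summed to between 0.515 and 3.23, and endothelial markers (10 genes) to between 17.2 and 166, and the IR groups of both genotypes overlapped in each of the 3 lists.

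Of the other 4 mouse Toll-like receptors, *Tlr12* was the highest, at 1.06 ± 0.304 FPKM in WT baseline, 0.934 ± 0.359 in Tet2-/- baseline, 1.91 ± 0.583 in WT IR and 0.980 ± 0.666 in Tet2-/- IR kidneys. *Tlr8*, *Tlr9* and *Tlr11* were at most 0.374 FPKM in any library. *Tlr11*, whose product binds profilin of parasites, was 0.0440, 0.189 and 0.0860 FPKM in Tet2-/- baseline libraries (10.5, 91 and 26 counts) and 0.00800, 0.0150 and 0 FPKM after IR (3, 6 and 0 counts). It was the 1 of 3 tested that changed in that comparison, where 24.3% of all genes did, and it passed the filter on low counts only through the baseline libraries, where it was higher. *Tlr8* after IR was 0.0570, 0.0250 and 0.00500 FPKM in WT and 0.205, 0.374 and 0.115 FPKM in Tet2-/- libraries (log2 fold change 2.90, SE 0.77, edgeR adjusted p = 0.059). Between genotypes after IR, edgeR called 0 of 3 tested, against 6.15% of all genes, and DESeq2 called 1.

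The signalling partners downstream were taken from lists of pathway genes. Of 18 tested adaptors and kinases, 2 rose in Tet2-/- kidneys after IR and 0 fell, where 12.7% of all genes rose and 11.6% fell, so the share that rose was near that of all genes. Those that rose were *Tirap*, the adaptor that brings MYD88 to TLR2 and TLR4 (0.830 ± 0.142 to 4.38 ± 0.749 FPKM, log2 fold change 2.13, SE 0.20, edgeR adjusted p = 0.000331), and *Ikbkg*, the regulatory subunit of the IkB kinase (4.24 ± 0.0693 to 11.2 ± 2.14 FPKM, 1.14, SE 0.14, adjusted p = 0.000781). For the interaction 2 of 19 passed, *Tirap* (1.46, edgeR adjusted p = 0.0303) and *Traf3* (0.61, adjusted p = 0.0299). Of all genes 9.18% passed it, 3.79% with a higher value in Tet2-/- kidneys, so the share that passed was near that of all genes. Of 13 transcription factors, 3 rose in Tet2-/- kidneys and 1 fell, against 12.7% and 11.6% of all genes. The NF-kB subunits *Relb*, *Nfkb2* and *Rel* rose (log2 fold change 2.01, 1.5 and 2.35), the subunits *Nfkb1* and *Rela* did not pass, and *Irf5* fell (-1.40). In WT kidneys 0 of 19 adaptors and kinases and 0 of 13 transcription factors changed by edgeR, where 2.35% of all genes did, with 6 and 5 at an unadjusted p under 0.05, where 22.7% of all genes passed. DESeq2 called 0 and 2 of them, and limma on log2(FPKM + 1) called 0 of either. Of 10 chaperones and co-receptors, *Trem1*, an amplifier of TLR signals on neutrophils and monocytes, passed the filter only through the IR libraries and rose in both genotypes, from at most 2.5 counts in any baseline library to between 10 and 30.5 counts in WT IR and 131.5 and 624.0 counts in Tet2-/- IR libraries. *Trem1* was higher in Tet2-/- than in WT kidneys after IR (log2 fold change 3.56, SE 0.55, edgeR adjusted p = 0.0169), and *Lbp*, the lipopolysaccharide binding protein, rose in Tet2-/- kidneys (1.25, SE 0.41, adjusted p = 0.0416).

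Of 18 negative regulators, 6 rose and 1 fell in Tet2-/- kidneys after IR, against 12.7% and 11.6% of all genes. *Socs3*, an inhibitor of cytokine signalling, rose from 0.749 ± 0.302 to 20.9 ± 6.20 FPKM (log2 fold change 4.52, SE 0.34, edgeR adjusted p = 0.000143), *Nfkbiz* by 1.58 and *Tnfaip3*, which encodes the deubiquitinase A20, by 1.44 on the log2 scale. *Dusp1*, a phosphatase of MAP kinases, fell in both genotypes (log2 fold change -3.34, SE 0.33, edgeR adjusted p = 0.0087 in WT and -1.69, SE 0.36, adjusted p = 0.0078 in Tet2-/- kidneys) and was the 1 of 18 that changed in WT, where 2.35% of all genes did. *Irak3*, an inactive kinase that restrains MYD88 signalling, was the 1 of 18 higher in Tet2-/- than in WT kidneys after IR (1.58, SE 0.39, edgeR adjusted p = 0.0499), against 2.30% of all genes.

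Of 18 candidate ligands released by cells or matrix, 4 rose in WT kidneys after IR, against 1.46% of all genes. In Tet2-/- kidneys 10 rose and 2 fell, against 12.7% and 11.6%, so the share that fell was near that of all genes. Among the 15 that passed the filter in the baseline libraries alone, 2 rose in WT kidneys, and 7 rose and 2 fell in Tet2-/- kidneys. *S100a8*, which is also a neutrophil marker, rose in Tet2-/- kidneys from 0.688 ± 0.102 to 40.4 ± 11.3 FPKM (log2 fold change 5.61, SE 0.28, edgeR adjusted p = 4.78e-05), and *Fgg*, a chain of fibrinogen, rose in both genotypes (4.79 in WT and 7.17 in Tet2-/- kidneys). *Saa1*, serum amyloid A, had 0 counts in the Tet2-/- baseline libraries and reached 9.08 ± 5.19 FPKM after IR, at least 178-fold higher against a limit of 3 counts per library. *S100a8* (3.93), *S100a9* (3.85), *Tnc* (2.80) and *Hspb8* (1.45), 4 of 18, were higher in Tet2-/- than in WT kidneys after IR on the log2 scale, against 2.30% of all genes, and the calls of *Tnc* and *Hspb8* were lost without WT IR replicate 1 or 3 among others. Of the response genes, 2 of 14 tested rose in WT kidneys, against 1.46% of all genes, *Lcn2* (log2 fold change 6.17) and *Icam1* (1.35), whose calls, like those of *Fgg* and *Fga*, were lost without any 1 WT baseline replicate. In Tet2-/- kidneys 8 of the 15 that passed the filter in the baseline libraries alone rose, against 12.7%, and *Il6* and *Csf3* passed it only through the IR libraries. *Lcn2*, an iron-scavenging protein made by injured tubules and neutrophils, reached 236 ± 212 FPKM in WT and 1560 ± 566 FPKM in Tet2-/- kidneys, from 3.10 ± 0.986 and 2.30 ± 1.08 at baseline. *Il1b* (2.59) was higher in Tet2-/- than in WT kidneys after IR, the 1 of 14 that passed the filter both in the baseline and in the IR libraries, against 2.30% of all genes, and its call was lost without WT IR replicate 1. *Il6* had 1, 4.5 and 9 counts in WT IR and 297, 170.5 and 65 counts in Tet2-/- IR libraries. At baseline no gene of these lists differed between genotypes by edgeR, where 9 of 90 tested passed at an unadjusted p under 0.05, against 11.8% of all genes, and DESeq2 called 3 and limma 0.

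**Figure D4:**
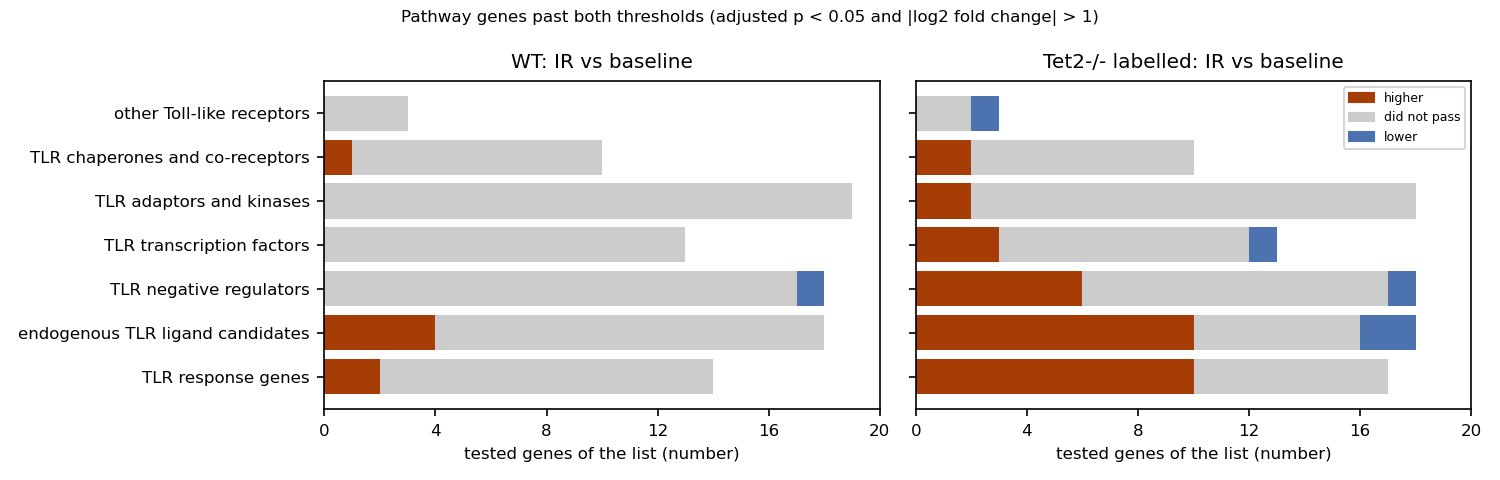
Number of tested genes of 7 pathway lists (horizontal axis, linear) that rose, fell or did not pass in WT and in Tet2-/- kidneys after IR. Ligand candidates (10 rose, 2 fell of 18) and response genes (10 rose of 17), of which 3 and 2 passed the filter on low counts only through the IR libraries, have the most changed genes in the Tet2-/- panel, where 24.3% of all genes changed, and 4 of 18 and 2 of 14 in the WT panel, where 2.35% did.

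The genes most like each member over the 12 libraries were taken by Pearson's correlation of log2(FPKM + 0.1) among 12213 genes with a mean of at least 1 FPKM, as a description over libraries that share groups, injury and cell makeup. *Cd14* was most like *Rell1* (0.993), *Stat3* (0.992) and *Gch1* (0.991). *Tlr13* was most like *Ncf1* (0.969), *Tgfb1* (0.967) and *Ccl6* (0.964), and *Tlr7* most like *Laptm5* (0.965), *Mpeg1* (0.960) and *Coro1a* (0.959), of which *Ncf1*, *Laptm5*, *Mpeg1* and *Coro1a* are expressed chiefly in leukocytes. *Tlr4* was most like *Cdc42ep4* (0.952), *6430548M08Rik* (0.945) and *Uvrag* (0.944), *Tlr2* most like *Mettl10* (0.960), *Parp14* (0.955) and *Isg15* (0.915), and *Tlr3* most like *Kdm2a* (0.977), *AI987944* (0.969) and *Wbp4* (0.967). For *Tlr1* (*Fgr*), *Tlr5* (*Dag1*), *Tlr6* (*St6galnac6*) and *Ly96* (*Comtd1*) the highest correlation was 0.963, 0.924, 0.920 and 0.963. Among the members, *Cd14* and *Tlr3* correlated at 0.87, *Tlr1* and *Tlr13* at 0.86 and *Tlr7* and *Ly96* at -0.03, so the set did not vary as one.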

How the data were processed

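RNA-seq of 12 mouse kidneys in 4 groups of 3 was analysed. According to the labels and the study's methods, the authors used STAR for alignment to mm9 and HOMER for counting on RefSeq transcripts (versions are not given in the sources used here). The deposited values are raw counts of 34600 transcripts and their FPKM. Steps between the deposited counts are 0.5, and 38.7% are not whole, so they were treated as estimated counts and rounded for the tests, although whole counts had been planned for. Of 24421 symbols, 5569 had several transcripts, and the transcript with the highest total over all libraries was used. Coordinates are those of mm9 counted from 1, promoters those of GRCm38.p6.

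The tests used R 4.3.3 with edgeR 4.0.16: TMM normalization, its standard filter for low counts, the quasi-likelihood F test, and p-values adjusted by Benjamini and Hochberg's method over every gene tested, on the 6 libraries of each comparison, or on all 12 for the interaction, which was called at an adjusted p under 0.05. DESeq2 1.42.0, limma 3.58.1 on log2(FPKM + 1) and log2(FPKM + 0.1), other scalings and filters, all transcripts, all 12 libraries in 1 fit, the replicate number as a block and each library left out were the alternatives, and the fat cell covariate and, for the interaction, a block of same-numbered libraries within a genotype were added after the data were seen. The scripts were tested on simulated data for the genotype comparison after IR. Where no gene was made to differ, DESeq2 made 28 false calls among 16186 genes and edgeR made 0 among 16024. Where some were made to differ, DESeq2 recovered 169 of 200 with 49 false calls, and edgeR recovered 139 of 196 with 5. A call made by DESeq2 and not by edgeR is therefore less certain.

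The text names the 10 genes, *Tet2* and, from each pathway list and comparison, up to 4 changed genes with a mean of at least 1 FPKM in either group, no overlap between groups and the largest log2 fold change. *Tlr8*, *Tlr11*, *Tlr12*, *Trem1*, *Lbp*, *Rel*, *Nfkb1*, *Rela*, *Traf3*, *Irak3*, *Csf3*, the leukocyte markers, *Spp1*, *Timp1* and *Adipoq* were named after their values were seen. The members and lists were chosen with earlier results of these data known. *S100a8* and *S100a9* are in a pathway list and among neutrophil markers, *Lcn2* and *Vcam1* in a pathway list and among injury markers.

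Same-numbered baseline and IR libraries of a genotype moved together around their group means, with correlations between 0.358 and 0.38 in the WT pairs and between 0.135 and 0.359 in the Tet2-/- pairs. The pairing comes from these correlations only, since the mice differ.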

Additional observations from a re-analysis of the deposited data

Results flagged for a closer look

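The IR effects on *Tlr4* and *Cd14* differed between the genotypes by the interaction term. For *Tlr4* the difference of the log2 fold changes was 2.67 (SE 0.69, edgeR adjusted p = 0.037), from -0.87 in WT and 1.75 in Tet2-/- kidneys. The call was lost without WT baseline replicate 2, any 1 Tet2-/- baseline replicate, WT IR replicate 1 or 3, or Tet2-/- IR replicate 2 or 3, and all values stayed above 0. For *Cd14* the difference was 2.35 (SE 0.55, edgeR adjusted p = 0.027), from 2.25 in WT and 4.56 in Tet2-/- kidneys. That call was lost without WT baseline replicate 1, Tet2-/- baseline replicate 1 or 3, WT IR replicate 3 or Tet2-/- IR replicate 1, with values from 2.06 to 2.98.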

How the results depend on the processing

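Of 918 values of the 10 genes under an alternative, 836 kept their direction and their side of the threshold, 37 lost and 27 gained a call, and 18 turned in sign, none of them on a called value. Of the 10 genes, the number called in WT kidneys after IR was 1 and became 0 with limma on log2(FPKM + 1) and 0 with the fat cell covariate. In Tet2-/- kidneys 4 became 1 with a filter at a mean of 1 FPKM, which leaves fewer of the 10 to test, and 1 with limma on log2(FPKM + 1), stayed at 4 with limma on log2(FPKM + 0.1) (*Tlr3* gained, *Tlr6* lost at a log2 value of 0.74), and became 5 with the replicate block (*Tlr2* gained) and with no fold threshold (*Tlr3* gained), and 6 with DESeq2 and with all 12 libraries in 1 fit (*Tlr1* and *Tlr2* gained), with library sizes alone (*Tlr2* and *Tlr3* gained) and with the covariate (*Tlr1* and *Tlr2* gained). At baseline 0 became 1 with DESeq2. After IR between genotypes, 1 became 3 with DESeq2, 2 with the replicate block, 2 with all 12 libraries in 1 fit and 0 with the covariate. For the interaction, 2 became 5 with DESeq2, 4 with same-numbered libraries of a genotype as a block, 1 with the filter at 1 FPKM and 0 with the covariate. With each library left out, the counts ran from 0 to 1 in WT, 2 to 6 in Tet2-/- kidneys, 0 to 2 between genotypes after IR and 0 to 2 for the interaction, and stayed at 0 at baseline. The causes of the other shifts were not tested.

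The values that turned in sign were those of *Tlr2* in WT kidneys (-0.05 with the replicate block, and from -0.39 to 0.31 with libraries left out), *Tlr5* in WT kidneys (from -0.29 to 0.26 with libraries left out, including -0.11) and between genotypes after IR (from -0.40 to 0.16 with libraries left out, including 0.04), *Tlr7* in Tet2-/- kidneys (from -0.32, without Tet2-/- IR replicate 2, to 1.2), *Tlr1* for the interaction (from -0.15, without Tet2-/- IR replicate 2, to 0.92) and *Ly96* for the interaction (-0.51 with the covariate and from -0.22, without WT baseline replicate 2, to 0.45 with libraries left out). *Tlr2* was -0.03 without WT baseline replicate 2. *Tlr7* at baseline was -0.02 with library sizes alone, -0.01 and -0.05 with limma on log2(FPKM + 1) and log2(FPKM + 0.1), -0.90 with the covariate, and -0.18, -0.15 and -0.59 without WT baseline replicate 2, WT baseline replicate 3 and Tet2-/- baseline replicate 2, up to 0.65 with other libraries left out.

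Scaling by library size in place of TMM moved the median log2 fold change of all genes from 0.04 to 0.27 in Tet2-/- kidneys after IR and from 0.10 to 0.24 for the interaction, where 1129 genes were higher and 700 lower, against 634 and 902. With DESeq2, 24 genes were higher and 326 lower at baseline, against 2 and 0, 838 and 909 after IR between genotypes, against 373 and 623, and 1222 and 1593 for the interaction. With limma on log2(FPKM + 1), 154 rose and 82 fell in WT kidneys and 1440 and 816 in Tet2-/- kidneys, and 226 were higher and 369 lower between genotypes after IR. With all 12 libraries in 1 fit, 373 rose and 258 fell in WT kidneys, and 714 were higher and 879 lower between genotypes after IR. With no fold threshold these were 568 and 999, and in Tet2-/- kidneys 3741 rose and 3313 fell. The covariate left 116 and 233 between genotypes after IR and 22 and 50 for the interaction. For the genotype comparisons the replicates share only a number (correlations of same-numbered libraries -0.186, -0.167 and 0.071 at baseline and 0.003, 0.23 and 0.32 after IR). With the block *Tlr13* passed between genotypes after IR (2.52, edgeR adjusted p = 0.0379) and for the interaction (2.70, adjusted p = 0.0387), and beside these and *Tlr2* this block changed no other call of the 10 genes. The block of baseline and IR libraries within a genotype, chosen after seeing the data, was used for the interaction alone and gained *Tlr6* and *Tlr13*. *Tlr6* with as few as 3 counts per library limits what this depth can show.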
